A study of Homo sapiens with 12 samples.

Results

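NRF2, encoded by NFE2L2, and 8 of its classical antioxidant target genes were followed in PE/CA-PJ41 cells, a line of human oral squamous cell carcinoma. The members were chosen by name: NFE2L2, NQO1, OSGIN1, GCLC, GCLM, TXNRD1, SRXN1, AKR1C1 and AKR1B10. All 9 were found among the 20375 genes listed for each library, and all 9 passed the filter on low values. Messenger RNA was sequenced in 12 libraries, 4 from cells given 10% platelet-rich plasma (PRP) for 48 h, 4 from cells given 10% human plasma for 48 h and 4 from untreated control cells. PRP is plasma in which platelets have been concentrated. All groups share the one line. The labels do not say how long controls were cultured, what they received in place of plasma, or whether replicates were separate cultures. The p-values therefore cover the variation among these libraries alone, and that variation may be technical.

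NRF2 is a transcription factor that KEAP1 holds in the cytoplasm and passes to the CUL3 ubiquitin ligase for breakdown. When electrophiles or oxidants modify KEAP1, NRF2 escapes, pairs with a small MAF protein and binds antioxidant response elements near genes for glutathione synthesis, thioredoxin recycling, NADPH supply and the removal of quinones and carbonyls. Much of this control acts on the protein, so the NFE2L2 transcript is not a measure of NRF2 activity. The pathway is often mutated in squamous carcinomas.

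Promoter sequences are shown because the members are known as targets of this element while their transcripts moved in different directions. The core TGACNNNGC was searched on both strands in the 250 bases before each RefSeq start (GRCh38.p14). Of the 9 members, 8 had a promoter entry and 2 of these (25.0%), GCLM and TXNRD1, held the core. Among the other listed genes 9 of 47 (19.1%) held it. Counted by window rather than by gene, 10.9% of all 35116 windows held it. Windows of some other listed genes are given for comparison, with 1 of the 2 found for KEAP1. Capitals mark the core, and each line reads 5′ to 3′ on the strand named.
GCLM, chr1:93909446-93909474, plus strand: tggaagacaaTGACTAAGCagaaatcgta
TXNRD1, chr12:104215670-104215698, plus strand: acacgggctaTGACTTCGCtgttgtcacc
TXNRD1, second start, chr12:104286920-104286948, minus strand: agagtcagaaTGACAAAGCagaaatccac
KEAP1, chr19:10502784-10502812, plus strand: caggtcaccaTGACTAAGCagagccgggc
GSTP1, chr11:67583736-67583764, plus strand: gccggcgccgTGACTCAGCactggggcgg
ME1, chr6:83431170-83431198, minus strand: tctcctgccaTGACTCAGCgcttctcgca
CBR1, chr21:36069855-36069883, minus strand: ccagctagccTGACTTTGCagaacccgca
The GSTP1 and ME1 windows also contain TGANTCA, the AP-1 motif, within the same letters. A match is a description of these letters and not evidence of binding. Bases farther from a start were not searched, so a missing match does not show that a gene lacks the element.

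The libraries held 36943548 to 41976136 estimated reads in PRP, 36258955 to 41946780 in plasma and 40166503 to 41531218 in control. All 7 squamous epithelial markers fixed for the line were expressed, with KRT5 between 4531 and 8295 TPM, where TPM, a share of all transcripts, is a level corrected for transcript length. Their summed level was 13195 to 14635 TPM in PRP, 13239 to 14415 in plasma and 10632 to 11789 in control. The leukocyte markers PTPRC, CD3E and CD14 summed to 4.32 to 6.37 TPM in PRP, 4.05 to 5.75 in plasma and 1.79 to 3.20 in control. Only CD14 reached 1 TPM in at least 4 libraries, and PTPRC stayed at or below 0.774 TPM. The platelet gene PF4 and the erythroid gene HBB had 0 reads in all 12 libraries. The other platelet gene, PPBP, reached 0.104 TPM (3 reads) in PRP and had 0 TPM in plasma and control. HBA1, the other erythroid gene, had 1.05 to 2.83 TPM in PRP, 0 to 1.92 in plasma and 0 to 2.44 in control, with at most 24 reads. Over the 12 libraries the fibroblast marker COL1A1 had 6.80 to 12.5 TPM and the endothelial marker VWF 5.75 to 9.74 TPM. The other fibroblast markers, COL1A2 and DCN, reached 0.151 and 1.31 TPM, and the other endothelial marker, PECAM1, reached 0.0501 TPM. Mitochondrial transcripts took 0.191 to 0.731% of reads in PRP, 0.216 to 0.769% in plasma and 0.287 to 0.969% in control. The part of these differences in the results below was not tested.

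With PRP, 3 of the 9 members rose and 3 fell against control, and with plasma likewise 3 rose and 3 fell. NFE2L2 and NQO1 rose and OSGIN1, GCLM and SRXN1 fell in both comparisons, TXNRD1 passed the threshold only in the PRP comparison, AKR1B10 only in the plasma comparison, and GCLC and AKR1C1 in neither. Called means an adjusted p under 0.05 from limma over 12517 genes. About as many genes passed as did not: 53.1% of all genes with PRP (21.7% higher, 31.5% lower) and 49.3% with plasma (20.3% higher, 29.0% lower), so a call alone sets no member apart from other genes. With PRP, 59.2% of all calls were lower on the deposited scale and 48.9% once libraries were centred on their medians. With plasma these shares were 58.8% and 47.9%. The median log2 change of the members was -0.02 with PRP and -0.06 with plasma, beside -0.06 and -0.05 over all genes. Libraries did not overlap with control for 3 members higher and 3 lower with PRP, beside 19.0% and 27.8% of all genes, and for 2 higher and 3 lower with plasma, beside 18.2% and 25.7%. No member reached a log2 change of 1, and both comparisons use the same 4 control libraries.

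**Figure D1:**
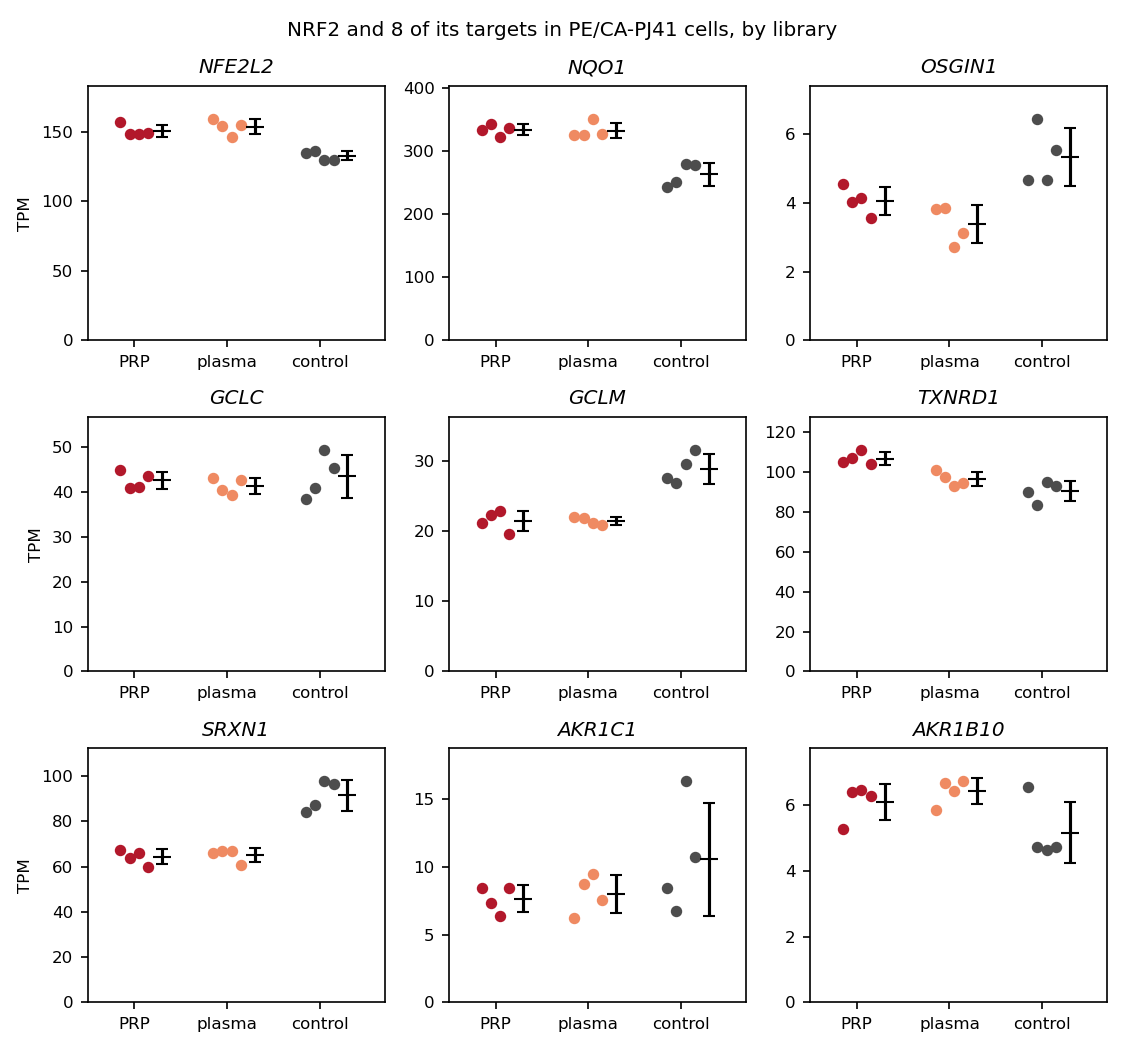
TPM of each member by library in PRP, plasma and control (4 points each, in order of replicate number), with the mean and SD as a bar beside each group. NFE2L2 and NQO1 lie above control in both treated groups, OSGIN1, GCLM and SRXN1 lie below, and GCLC and AKR1C1 overlap.

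The level of NFE2L2 itself (chromosome 2, 177227595 to 177392697, GRCh38) was modestly higher in treated cells. It had 157, 148, 148 and 149 TPM in PRP, 159, 154, 146 and 155 TPM in plasma, and 135, 136, 129.9 and 129.8 TPM in control. The treated libraries all lay above the highest control library. The log2 change, on the scale of log2(TPM + 1), was 0.18 ± 0.04 with PRP (SE, adjusted p = 6.45e-04) and 0.21 ± 0.04 with plasma (adjusted p = 2.54e-04). From reads instead of TPM it was 0.25 and 0.27. Exons of NFE2L2 overlap those of AGPS on the other strand (64.6 to 76.1 TPM), and the sources used here do not say whether counting used strand.

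NQO1 (chromosome 16, 69706996 to 69726951), a quinone reductase and the usual reporter of NRF2 activity, was the most abundant member in every group. It had 334, 343, 323 and 337 TPM in PRP, 326, 326, 351 and 328 TPM in plasma, and 244, 251, 280.3 and 278 TPM in control. No treated library overlapped with control. NQO1 changed on the log2 scale by 0.35 ± 0.05 with PRP (adjusted p = 2.98e-05) and 0.34 ± 0.05 with plasma (adjusted p = 4.29e-05), a ratio of means of 1.27 and 1.26. OSGIN1 (chromosome 16, 83948282 to 83966332), a growth inhibitor induced by oxidative stress, went the other way at a far lower level. It had 4.54, 4.04, 4.15 and 3.55 TPM in PRP, 3.82, 3.86, 2.72 and 3.12 TPM in plasma, and 4.66, 6.44, 4.68 and 5.55 TPM in control. Neither treated group overlapped with control, although the lowest control library lay only just above the highest PRP library, and PRP and plasma overlapped with each other. The log2 change was -0.32 ± 0.11 with PRP (adjusted p = 0.0310) and -0.53 ± 0.11 with plasma (adjusted p = 0.00156). The PRP call was the less secure of these, and it ended without control replicate 2 (adjusted p = 0.104), control replicate 4 (0.0691), PRP replicate 2 (0.0583), PRP replicate 3 (0.0507) or PRP replicate 4 (0.0878), and with no filter on low values (0.0521).

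GCLC and GCLM encode the catalytic and modifier subunits of glutamate-cysteine ligase, the rate-limiting enzyme of glutathione synthesis. GCLM fell with both additives, and GCLC did not pass the test with either. GCLM (chromosome 1, 93885205 to 93909456) had 21.1, 22.3, 22.8 and 19.6 TPM in PRP, 22.0, 21.8, 21.2 and 20.8 TPM in plasma, and 27.5, 26.8, 29.5 and 31.5 TPM in control. Every treated library lay below every control library. GCLM changed by a log2 value of -0.41 ± 0.06 with PRP (adjusted p = 7.25e-05) and -0.40 ± 0.06 with plasma (adjusted p = 9.28e-05). GCLC (chromosome 6, 53497341 to 53616970) had 44.9, 40.8, 41.1 and 43.5 TPM in PRP, 43.0, 40.4, 39.4 and 42.6 TPM in plasma, and 38.5, 40.8, 49.3 and 45.3 TPM in control. Its groups overlapped, with control the most spread, and its log2 change was -0.02 ± 0.07 with PRP (adjusted p = 0.778) and -0.06 ± 0.07 with plasma (adjusted p = 0.445). The sign of the PRP value turned to 0.03 with median centring. The TPM ratio of GCLC to GCLM within a library was 1.99 ± 0.207 in PRP, 1.93 ± 0.093 in plasma and 1.51 ± 0.120 in control (SD, n = 4 each). This ratio does not depend on how libraries are scaled, and it was chosen after the values were seen and carries no test.

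TXNRD1 encodes cytosolic thioredoxin reductase, a selenoprotein that regenerates thioredoxin with NADPH, and SRXN1 encodes sulfiredoxin, which repairs overoxidised peroxiredoxins. TXNRD1 (chromosome 12, 104215779 to 104350305) had 105, 107, 111 and 104 TPM in PRP, 101, 97.4, 93.1 and 94.5 TPM in plasma, and 90.2, 83.3, 95.0 and 93.1 TPM in control. PRP libraries lay above all others, while plasma overlapped with control. TXNRD1 had a log2 change of 0.24 ± 0.04 with PRP (adjusted p = 4.55e-04) and 0.09 ± 0.04 with plasma (adjusted p = 0.0914). Median centring (adjusted p = 0.0265) and reads (adjusted p = 0.0297) brought the plasma value past the threshold, at 0.14 and 0.12. The estimated effective length of TXNRD1 differed by -0.10 (log2) between PRP and control, and from reads the PRP change was 0.21.

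SRXN1 (chromosome 20, 646615 to 653370) showed the largest fall with PRP among the members and the second-largest, after OSGIN1, with plasma. It had 67.3, 63.9, 66.1 and 59.8 TPM in PRP, 66.1, 67.0, 66.7 and 60.8 TPM in plasma, and 84.2, 87.1, 97.7 and 96.6 TPM in control. The lowest control library lay above the highest treated one. SRXN1 changed by a log2 value of -0.50 ± 0.06 with PRP (adjusted p = 5.56e-06) and -0.48 ± 0.06 with plasma (adjusted p = 1.02e-05). In control cells SRXN1 and TXNRD1 were at the same level within their spread, 91.4 ± 6.77 and 90.4 ± 5.16 TPM. In treated cells TXNRD1 stood above SRXN1 in each library.

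**Figure D2:**
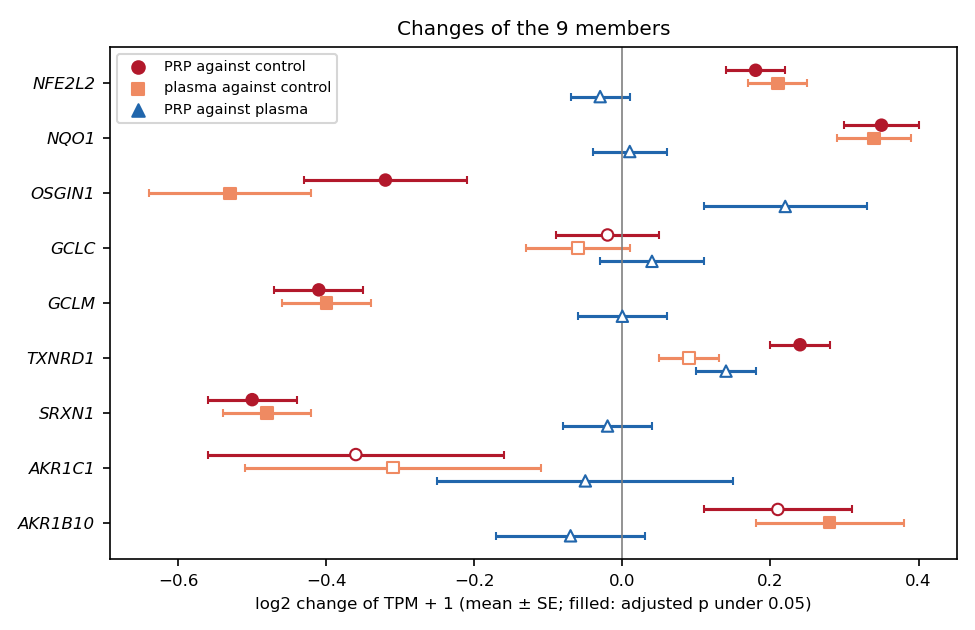
Log2 change of TPM + 1 for each member in PRP against control, plasma against control and PRP against plasma, with the SE as a bar and a filled symbol where the adjusted p is under 0.05. NFE2L2 and NQO1 lie right of 0 and OSGIN1, GCLM and SRXN1 left of it against control, and no symbol of PRP against plasma is filled.

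The aldo-keto reductases AKR1C1 and AKR1B10, which reduce ketosteroids and reactive carbonyls, were expressed at a low level and were the least certain members. AKR1B10 (chromosome 7, 134527592 to 134541408) had 5.26, 6.38, 6.45 and 6.27 TPM in PRP, 5.85, 6.66, 6.42 and 6.72 TPM in plasma, and 6.54, 4.71, 4.64 and 4.71 TPM in control. Control replicate 1 lay within the range of plasma and above all PRP libraries. The log2 change was 0.21 ± 0.10 with PRP (adjusted p = 0.0864) and 0.28 ± 0.10 with plasma (adjusted p = 0.0319). Without control replicate 1 the PRP value was 0.32 and passed (adjusted p = 0.00650), as it did without PRP replicate 1 (0.0419), with median centring (0.0446) and with reads (0.0306). The plasma call ended without control replicate 2 (adjusted p = 0.0831), 3 (0.0832) or 4 (0.0814), and without plasma replicate 2 (0.0713), 3 (0.0600) or 4 (0.0749), and with no filter on low values (0.0537).

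AKR1C1 (chromosome 10, 4963253 to 4983283) had 8.43, 7.35, 6.34 and 8.43 TPM in PRP, 6.20, 8.74, 9.43 and 7.56 TPM in plasma, and 8.46, 6.73, 16.3 and 10.7 TPM in control. The groups overlapped, and control replicate 3 was the highest library. The log2 change was -0.36 ± 0.20 with PRP (adjusted p = 0.139) and -0.31 ± 0.20 with plasma (adjusted p = 0.209). It passed in both comparisons only without control replicate 2 (adjusted p = 0.0276 and 0.0457). AKR1C1 has a near-identical neighbour, AKR1C2 (chromosome 10, 4987400 to 5018031), and the counting could split their reads. Summed, the pair averaged 38.8 ± 3.70 TPM in PRP, 36.0 ± 2.60 in plasma and 37.6 ± 7.32 in control. The log2 change of the sum was 0.06 with PRP (adjusted p = 0.668) and -0.05 with plasma (adjusted p = 0.755). The share of AKR1C1 in the sum ran from 18.2 to 21.0% in PRP, 18.0 to 28.4% in plasma and 22.8 to 35.1% in control, and its estimated effective length from 1076 to 1635 bases over the libraries.

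PRP and plasma were then compared directly. With limma 0 of 9 members passed, where 0.0639% of all genes did, and voom on reads also called 0. TXNRD1 was the only member with an unadjusted p under 0.05, at 107 ± 2.97 TPM in PRP and 96.6 ± 3.65 TPM in plasma. Its log2 difference was 0.14 ± 0.04 (limma adjusted p = 0.400), and it was the 1 member whose groups did not overlap. Groups did not overlap for 2.63% of all genes with PRP higher and 2.59% with PRP lower. OSGIN1 had a log2 difference of 0.22 with a 95% interval from -0.03 to 0.46, and that of AKR1C1 ran from -0.47 to 0.37. For NFE2L2, NQO1, GCLC, GCLM, SRXN1 and AKR1B10 the intervals reached at most 0.18 and at least -0.28.

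Within the control group replicates 3 and 4 stood above replicates 1 and 2 for NQO1, GCLC, GCLM, TXNRD1, SRXN1 and AKR1C1. The same control libraries had the highest mitochondrial share of reads, 0.938 and 0.969%, against 0.287 and 0.487% in replicates 1 and 2. NFE2L2, OSGIN1 and AKR1B10 did not share this order. In plasma and in PRP, replicates 3 and 4 also had a higher mitochondrial share than replicates 1 and 2. Of the members with the order in control, only NQO1 in plasma kept it there. GCLM and TXNRD1 had the opposite order in plasma. A link between the mitochondrial share and these levels was not tested. The calls for NFE2L2, NQO1, GCLM and SRXN1 against control passed when any 1 of the 12 libraries was left out and when the 3 libraries numbered 1 were left out.

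Ratios within a library set members that rose beside genes that fell. NQO1 to SRXN1 was 4.97, 5.37, 4.89 and 5.63 in PRP, 4.93, 4.87, 5.26 and 5.40 in plasma, and 2.90, 2.88, 2.87 and 2.88 in control. The control libraries, which differed in the level of both genes, had nearly the same ratio. NFE2L2 to KEAP1 was 1.63 ± 0.048 in PRP, 1.66 ± 0.115 in plasma and 1.26 ± 0.049 in control (SD, n = 4 each). These ratios were chosen after the values were seen and are given as descriptions.

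**Figure D3:**
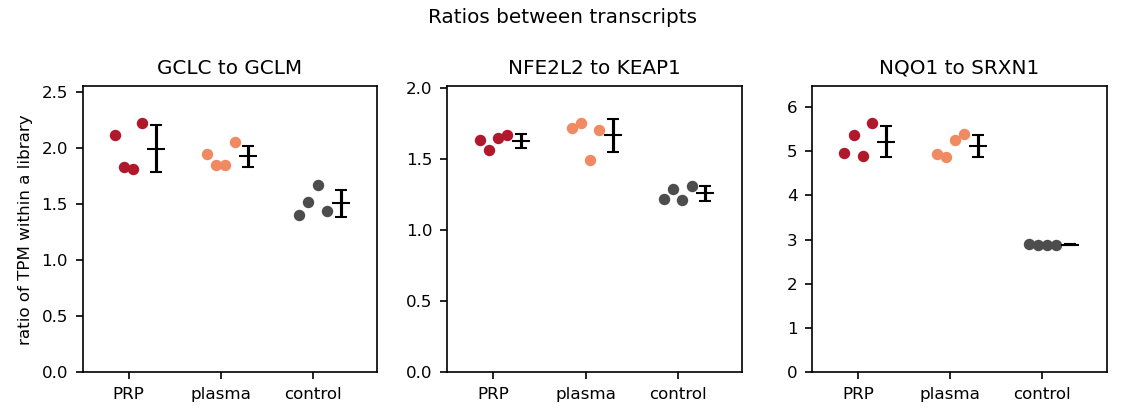
Ratios of TPM within each library for GCLC to GCLM, NFE2L2 to KEAP1 and NQO1 to SRXN1 in PRP, plasma and control (4 points each, mean and SD beside them). All treated libraries lie above all control libraries in each panel, and the control points of NQO1 to SRXN1 span 2.87 to 2.90.

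Among 11 genes that control NRF2, 1 rose and 6 fell with PRP, and 1 rose and 5 fell with plasma. Over all genes 21.7% rose and 31.5% fell with PRP, and 20.3% rose and 29.0% fell with plasma. The sharpest falls were in the small MAF partners MAFG and MAFK. MAFG had 18.8 ± 0.716 TPM in PRP, 19.0 ± 1.36 in plasma and 33.1 ± 2.58 in control, a log2 change of -0.78 ± 0.06 (adjusted p = 3.52e-07) and -0.77 ± 0.06 (adjusted p = 4.84e-07). MAFK had 38.5 ± 2.46, 37.5 ± 1.09 and 55.0 ± 1.48 TPM in PRP, plasma and control. The third small MAF, MAFF, was 14.0 ± 1.27 TPM in PRP, 14.0 ± 1.65 in plasma and 13.5 ± 0.409 in control (adjusted p = 0.716 and 0.753). KEAP1, the inhibitor, fell to 92.6 ± 3.44 TPM in PRP and 92.5 ± 4.06 in plasma, against 106 ± 4.85 in control (adjusted p = 0.00246 and 0.00261). The log2 change of KEAP1 was -0.19 with each additive on TPM + 1, and only -0.09 with PRP and -0.11 with plasma from reads. Its call held in 19 of 19 alternatives with each. CUL3 was 62.3 ± 1.62, 62.4 ± 3.75 and 78.6 ± 1.84 TPM in PRP, plasma and control (adjusted p = 2.69e-05 and 3.26e-05), while RBX1, another core subunit of that ligase, rose (58.6 ± 2.02, 57.4 ± 2.14 and 52.5 ± 2.19 TPM).

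Of 30 further target genes, 28 were tested, and 7 rose and 14 fell with PRP, while 6 rose and 12 fell with plasma. The shares over all genes were 21.7% and 31.5% with PRP, and 20.3% and 29.0% with plasma. The median log2 change of these targets was -0.14 with PRP and -0.07 with plasma, beside -0.06 and -0.05 over all genes. The NADPH-producing enzymes accounted for 4 of the falls in each comparison. Among them were ME1, malic enzyme, and PGD, phosphogluconate dehydrogenase, with a log2 change of -0.55 and -0.37 with PRP and -0.54 and -0.49 with plasma. HMOX1, heme oxygenase 1, had 7.05 ± 1.08 TPM in PRP, 7.66 ± 1.01 in plasma and 12.2 ± 1.25 in control (adjusted p = 8.96e-05 and 4.11e-04). The ferritin light chain FTL was at 805 ± 16.3, 843 ± 47.4 and 744 ± 37.9 TPM in PRP, plasma and control (adjusted p = 0.0404 and 0.00382). The PRP call of FTL was lost in 9 of 19 alternatives, with no filter and without control replicate 2, 3 or 4, plasma replicate 2 or any PRP replicate, at an adjusted p of 0.0505 to 0.118. FTH1, the heavy chain, was at 12398 ± 638, 13793 ± 585 and 13529 ± 202 TPM (adjusted p = 0.0207 and 0.621). The PRP call of FTH1, at a log2 change of -0.13, was lost in 5 of 19 alternatives. It was -0.07 with median centring (adjusted p = 0.229), -0.03 with reads (0.453) and -0.13 with no filter (0.0947), and the call also ended without control replicate 2 or PRP replicate 3 (0.0688).

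Glutathione genes among these targets did not move as one. SLC7A11, the cystine importer that feeds glutathione synthesis and is also driven by ATF4, had 1.14 ± 0.241 TPM in PRP, 1.05 ± 0.363 in plasma and 3.19 ± 0.195 in control (adjusted p = 3.07e-05 and 1.99e-05). GSTP1, a glutathione transferase, had 5689 ± 149 TPM in PRP, 5771 ± 148 in plasma and 4581 ± 47.3 in control (adjusted p = 1.74e-06 and 1.23e-06). GPX2, an epithelial glutathione peroxidase, had 287 ± 6.97 TPM in PRP, 281 ± 6.19 in plasma and 262 ± 18.2 in control (adjusted p = 0.0172 and 0.0595). The PRP call of GPX2 was lost without control replicate 2 (adjusted p = 0.0518), and the plasma value passed without control replicate 3 (0.0153), with median centring (0.0231) and with reads (0.0110). Thioredoxin (TXN) and PRDX1 rose, with a log2 change of 0.18 and 0.24 with PRP and 0.15 and 0.17 with plasma.

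Of 7 carbonyl and epoxide genes, 1 rose and 3 fell with PRP, and 2 rose and 3 fell with plasma. Of 5 tested genes of conjugation and export, 3 fell with each additive and 0 rose. Beside these small counts, 21.7% of all genes rose and 31.5% fell with PRP, and 20.3% rose and 29.0% fell with plasma. ALDH3A1, an aldehyde dehydrogenase that the aryl hydrocarbon receptor (AHR) also induces, had 197 ± 6.06 TPM in PRP, 261 ± 18.3 in plasma and 461 ± 61.3 in control (adjusted p = 3.18e-08 and 1.43e-06). Its difference between PRP and plasma, -0.40 ± 0.08, missed the threshold (adjusted p = 0.0776), and ALDH3A1 was singled out for it after its values were seen. The difference passed in 3 of 19 alternatives. These were the fit with only the 8 libraries compared (adjusted p = 0.0114) and those without control replicate 1 (0.0243) or 3 (0.0405). CBR1 fell and AKR1B1 rose with both additives. AKR1C3 also fell with both, but its plasma call was lost with reads (log2 change -0.22, adjusted p = 0.0629). AKR1C2 had 31.2 ± 2.81 TPM in PRP, 28.0 ± 2.94 in plasma and 27.1 ± 3.46 in control (adjusted p = 0.0883 and 0.699). The drug exporter ABCC3 had 13.9 ± 2.15 TPM in PRP, 13.5 ± 2.30 in plasma and 27.9 ± 1.40 in control. ABCC2, a second exporter, also fell, with 0.607 ± 0.146 TPM in PRP, 0.704 ± 0.144 in plasma and 1.52 ± 0.296 in control. At this level the pseudocount shrinks the log2 change of ABCC2. The change was -0.65 with PRP and -0.56 with plasma on TPM + 1, and -1.27 and -1.11 from reads. No treated library reached 1 TPM, so ABCC2 passed the filter on low values through the control libraries alone. It is among the 3 falls counted above and among the falls of the 28 tested targets. ABCC2 was tested in 14 alternatives, where ABCC3 was tested in 19, and its call held in those 14 with each additive. Every alternative that left out a control library took ABCC2 below the filter. Those 14 therefore do not show how far its call rests on a single control library. PIR, an iron-binding nuclear protein, fell by a log2 value of 0.33 with each. TRIM16L was not analysed here.

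Among the promoter windows shown above, the genes with the core did not move in a single direction. GCLM, KEAP1, ME1 and CBR1 fell with both additives, GSTP1 rose with both, and TXNRD1 rose with PRP. Listed genes with the core that are not shown also differed. RBX1 rose and PGD fell with both additives, GPX2 rose with PRP, and MAFF and EPHX1 passed with neither. The core TGACTCAGC occurred before GSTP1, which rose, and before ME1, which fell.

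**Figure D4:**
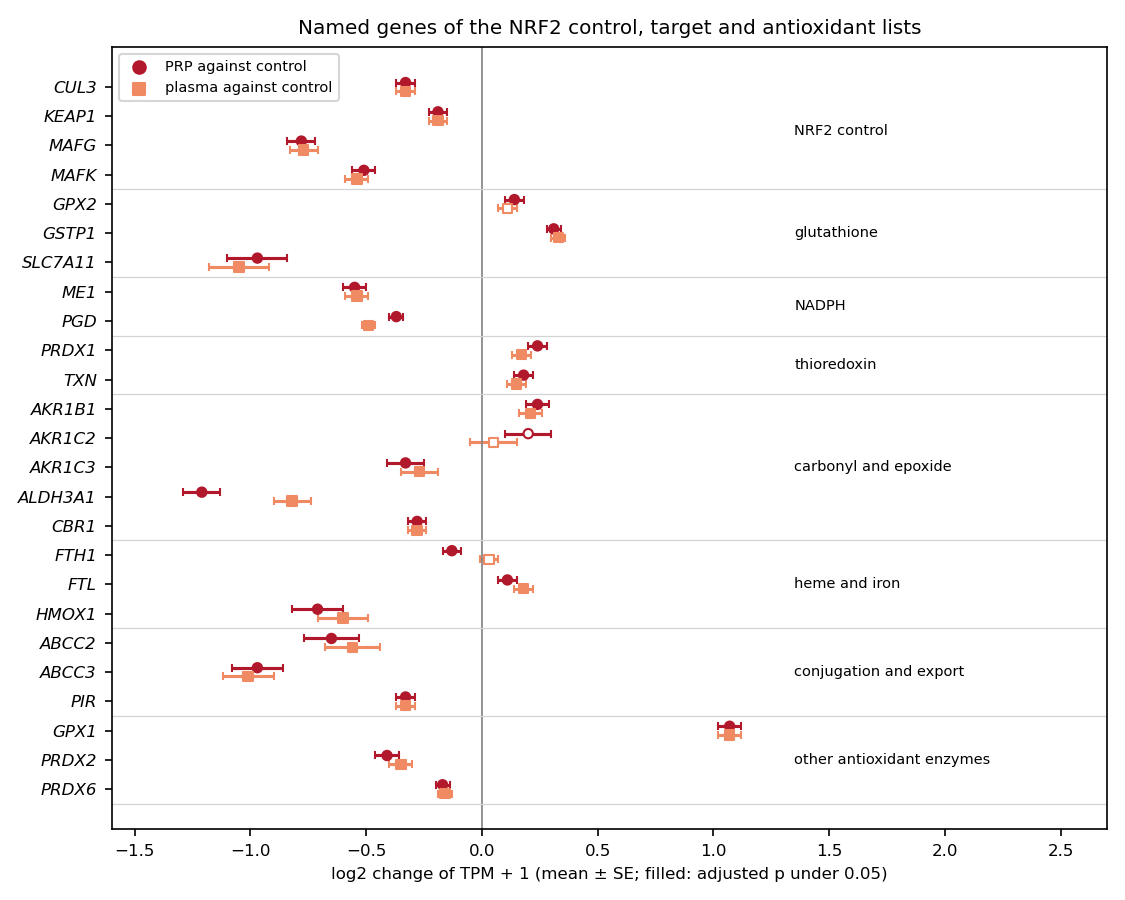
Log2 change of TPM + 1 with its SE for the named NRF2 control, target and other antioxidant genes in PRP against control and plasma against control (filled where adjusted p is under 0.05). GPX1 stands alone at 1.07 in both comparisons, and SLC7A11, ABCC3 and ALDH3A1 are among the lowest.

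Antioxidant enzymes outside these target lists served as a comparison. Of 15 genes 14 were tested, and 4 rose and 4 fell with PRP, while 6 rose and 3 fell with plasma, where 53.1% of all genes were called with PRP and 49.3% with plasma. GPX1, a selenium-dependent glutathione peroxidase, had 210.2, 210.3, 202 and 227 TPM in PRP, 212, 215, 215 and 205 TPM in plasma, and 110.5, 101, 95.7 and 94.9 TPM in control. Its log2 change was 1.07 ± 0.05 in each comparison (adjusted p = 2.54e-09 with PRP and 3.27e-09 with plasma). PRDX2 and PRDX6 fell with both additives.

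Some of these genes answer to other regulators. CYP1A1, the standard AHR target, had 42.8 ± 1.64 TPM in PRP, 48.8 ± 2.22 in plasma and 116 ± 18.8 in control, so it fell where NQO1, also an AHR target, rose. CHAC1, an ATF4 target that degrades glutathione, had 6.98 ± 1.02, 5.26 ± 1.20 and 21.2 ± 2.81 TPM in PRP, plasma and control.

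The tested genes most like NQO1 over the 12 libraries were IGFBP2, SLC25A39, TPD52, CRABP2 and MACROH2A1, with a Pearson r of 0.978 to 0.985. SLC25A39, the mitochondrial glutathione carrier, had 162 ± 3.57 TPM in PRP, 154 ± 4.45 in plasma and 116 ± 7.62 in control. For NFE2L2 they included ETV6, GBP4, DEPP1 and WDR11, with r of 0.976 to 0.981. After subtracting group means r was 0.83 to 0.92 for the first set and 0.84 to 0.91 for the second. The points share libraries and the group difference, so these values are descriptions.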

How the data were processed

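RNA of 12 libraries was measured, per the labels by poly(A) capture and the Watchmaker mRNA kit. The submitters' processing notes list Salmon and hg38, with no version. The transcript set and strand setting are not given in the sources used here. Per the file headers, the authors deposited length, effective length, TPM and estimated counts (NumReads) per gene, with decimal commas; 2 plasma files head the TPM column with the library's name. TPM recomputed from counts and effective lengths matched for 20375 of 20375 genes (within 1% plus 0.01 TPM).

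Genes reaching 1 TPM in 4 or more libraries (12517) were fitted on log2(TPM + 1) by limma-trend (limma 3.58.1 under R 4.3.3), with 1 term per group, two-sided, Benjamini-Hochberg adjusted over all these genes. It understates changes of low genes. The deposited estimated counts entered only an alternative, limma's voom, and no negative binomial model was fitted. In the shallowest library 0 reads allow up to 0.0827 CPM (3 reads, counting error only). The functions were tested on simulated data. Replicate pairs differed beyond sampling noise (chi-square per degree of freedom 3.85 to 32.7).

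The members and lists were chosen with earlier results of these data known. All members are named; of each list, the 3 genes with the smallest adjusted p against control and 8 fixed genes, and the 5 genes most like NQO1 and NFE2L2. Of these, 2 are not reported here. Others are marked, or named only for their call (RBX1, MAFF, EPHX1). Gene positions are from GENCODE 29 (GRCh38), and promoters from RefSeq (GRCh38.p14).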

Additional observations from a re-analysis of the deposited data

Results flagged for a closer look

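In 5 of 36 groups of 4 values, over the members and the 3 ratios, 1 library lay apart from the other 3 by more than a fixed limit on the gap, where chance gives 1.8. For NFE2L2 in PRP, replicate 1 was highest at 157 TPM, against 148 to 149 in the other PRP libraries. For NQO1 in plasma, replicate 3 was highest at 351 TPM, against 326 to 328 TPM. For SRXN1 in plasma, replicate 4 was lowest at 60.8 TPM, against 66.1 to 67.0 TPM. AKR1B10 in PRP was lowest in replicate 1 at 5.26 TPM, against 6.27 to 6.45 TPM, and in control highest in replicate 1 at 6.54 TPM, against 4.64 to 4.71 TPM.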

How the results depend on the processing

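Over the alternatives run, NFE2L2, NQO1, GCLM and SRXN1 kept direction and call against control in 19 of 19 each, with PRP and with plasma. Of members called, 5 to 7 of 9 passed with PRP and 5 to 6 with plasma when 1 library was left out. At a log2 change of at least 1, 0 members passed in any comparison, and 208 genes with PRP, 172 with plasma and 2 between PRP and plasma. The 8 genes called between PRP and plasma became 4 with no filter, 2 without the libraries numbered 1, 16 with only the 8 libraries compared, and 4 to 14 when 1 library was left out. For GCLC with PRP the sign turned with median centring (0.03) and reads (0.01), with -0.08 to 0.04 when 1 library was left out. AKR1C1 summed with AKR1C2 gave 0.06 with PRP against control and 0.11 between PRP and plasma, where reads gave 0.17. Between PRP and plasma GCLM was 0.00 with median centring and 0.01 without the libraries numbered 1, where NQO1 was 0.00. Leaving out 1 library gave -0.01 to 0.03 for NQO1, -0.03 to 0.04 for GCLM, -0.05 to 0.01 for SRXN1 and -0.15 to 0.03 for AKR1C1 there, and -0.03 to 0.12 for AKR1C2 with plasma against control. The cause of these turns was not tested. The labels tie no number to a shared batch, so the numbers were not taken to pair the libraries. Same-number correlations of deviations ran from -0.07 to 0.30, over 0.1 in 5 of 12 pairs, and the 36 other pairs ran from -0.22 to 0.20. As a hint from the data, a library correlated best with its own number in 13 of 24 cases. Each case was a choice among the 4 libraries of another group. The pairs numbered 1 had 0.15, 0.17 and 0.30, and replicate 1 had the lowest mitochondrial share in all 3 groups. A replicate block gave 6 members with PRP and 5 with plasma, where AKR1B10 missed the threshold (adjusted p = 0.0509). OSGIN1 and the aldo-keto reductases rest on 127 to 473 reads per library, which limits their precision.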
